A study of Mus musculus with 12 samples.

Results

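The 10 genes described here encode inhibitory and paired receptors of the myeloid cell surface: Lilrb4a, Lilr4b, Pirb, Cd300a, Cd300lf, Cd300ld, Cd33, Sirpa, Pilra and Clec12a. They were taken by name, with earlier results of these data known. All 10 had a row among the 16805 genes of the neutrophil table and the 16954 genes of the monocyte table. Expression had been measured by RNA-seq in 12 libraries of spleen cells from wild-type mice around cryo-thermal therapy (CTT), which treats a tumor locally by freezing and heating. Cells captured with an antibody to Ly6G, the surface protein used to select mouse neutrophils, came from untreated tumor-bearing mice (control, 3 libraries) or from mice at 12 h past CTT (3 libraries). Cells captured with an antibody to the chemokine receptor CCR2, the handle for inflammatory monocytes, came from mice 5 days after CTT, without (n = 3) or with (n = 3) anti-Ly6G, an antibody given to deplete neutrophils. All 6 monocyte libraries thus came from mice that had CTT, and monocytes from untreated mice were not analysed here. The mouse strain, tumor, age and sex, and the number of mice behind a library, are not known here, so p-values measure only the spread between libraries, which may in part be technical.

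Inhibitory receptors of this kind carry immunoreceptor tyrosine-based inhibitory motifs (ITIMs) in their cytoplasmic tails. When a kinase of the Src family phosphorylates these tyrosines, they recruit the phosphatases encoded by Ptpn6, Ptpn11 and Inpp5d, which damp signals from activating receptors. Paired families also hold activating members with near-identical outer domains and short tails, which signal through adaptors with activating motifs (ITAMs), such as Tyrobp and Fcer1g. In neutrophils, monocytes and macrophages, such pairs are known for setting the threshold of activation by sialic acids, MHC class I, lipids or CD47 on other cells.

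The libraries held 30942849 to 34935547 counts for neutrophils and 31865982 to 35956571 for monocytes, and the fewest reads on any of the 10 genes in a library were 953. The selected cells were mixed. In the neutrophil libraries 16 neutrophil markers summed to 4307 to 6304 CPM (counts scaled by library depth) in controls and 8311 to 13416 after CTT, while 11 B cell markers summed to 10694 to 22026 and 18631 to 21437. Ly6g, the gene of the selecting antigen, was at 9.52 to 14.7 CPM in controls and 12.7 to 25.5 CPM after CTT. In the monocyte libraries 10 inflammatory monocyte markers summed to 4075 to 6040 CPM after CTT and 5731 to 6690 CPM with anti-Ly6G, beside 12 red pulp macrophage markers at 10110 to 16779 and 7988 to 8748 CPM. No marker of these 4 lists was at 0 in every library. Control replicate 1 of the neutrophils stood apart, with 12 erythroid markers at 15207 CPM against 432 to 2582 CPM in the other 5 libraries. In such bulk samples, fewer cells of a type and less RNA per cell cannot be told apart.

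The near-identical neighbours Lilrb4a and Lilr4b lead the results, and their sequences show how they are kept apart in counting and where their products part. By RefSeq for GRCm38.p6, Lilr4b lies at chr10:51480612-51486329 and Lilrb4a at chr10:51490898-51496613. Their coding sequences (transcripts Lilr4b-201 and Lilrb4a-201 of the GENCODE annotation) are 912 and 1008 bases long. Of 910 aligned coding bases 874 were identical, or 96%. Lilrb4a encodes the inhibitory receptor known as gp49B, with ITIMs in its tail, and Lilr4b the short-tailed gp49A, which lacks them. The ends of the coding sequences, from base 852 in each and 5′ to 3′, show where they part. Capitals mark bases that differ or have no partner in the other gene.

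Lilrb4a: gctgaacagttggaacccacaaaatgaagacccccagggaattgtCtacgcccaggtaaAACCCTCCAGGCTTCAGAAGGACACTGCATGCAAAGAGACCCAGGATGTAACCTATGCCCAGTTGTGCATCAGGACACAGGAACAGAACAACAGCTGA

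Lilr4b: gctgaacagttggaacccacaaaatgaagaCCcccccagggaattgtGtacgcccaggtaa

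Lilr4b has 2 extra bases in this stretch, after which its reading frame ends, 96 bases short of that of Lilrb4a. Of the Lilrb4a transcript 27.8% of all 50-base windows, 14.3% of 100-base windows and 7.47% of 150-base windows were also in Lilr4b, and in no other gene of the tables. Reads from these stretches cannot be placed in one of the genes by sequence, and how the authors' counting treated them is not known here.

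Among the other receptors, Pirb shared most. At 100-base windows 21.5% of its transcript was also in 4 other tabled genes, with 15.2% in Gm14548 alone. Sirpa, Clec12a and Cd33 shared no 100-base window with any tabled gene, and Cd300a, Cd300lf, Cd300ld and Pilra shared 0.887% to 1.96%.

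In neutrophils 12 h after CTT, 4 of the 10 receptor genes rose: Lilrb4a, Lilr4b, Cd300lf and Cd33. Their folds were 3.04, 4.01, 2.33 and 2.94. No receptor gene fell, and the other 6 did not pass the test. The test was edgeR's quasi-likelihood test over all 13058 genes with Benjamini-Hochberg adjustment at 0.05, by which 74 genes rose (0.567%) and 0 fell (0%). Without adjustment 5 of the 10 passed as higher and 0 as lower, against 8.28% and 5.74% of all genes, and DESeq2 and limma-voom also called 0 lower. The median log2 fold change was 0.46 over the 10 receptors and −0.02 over all genes.

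**Figure D1:**
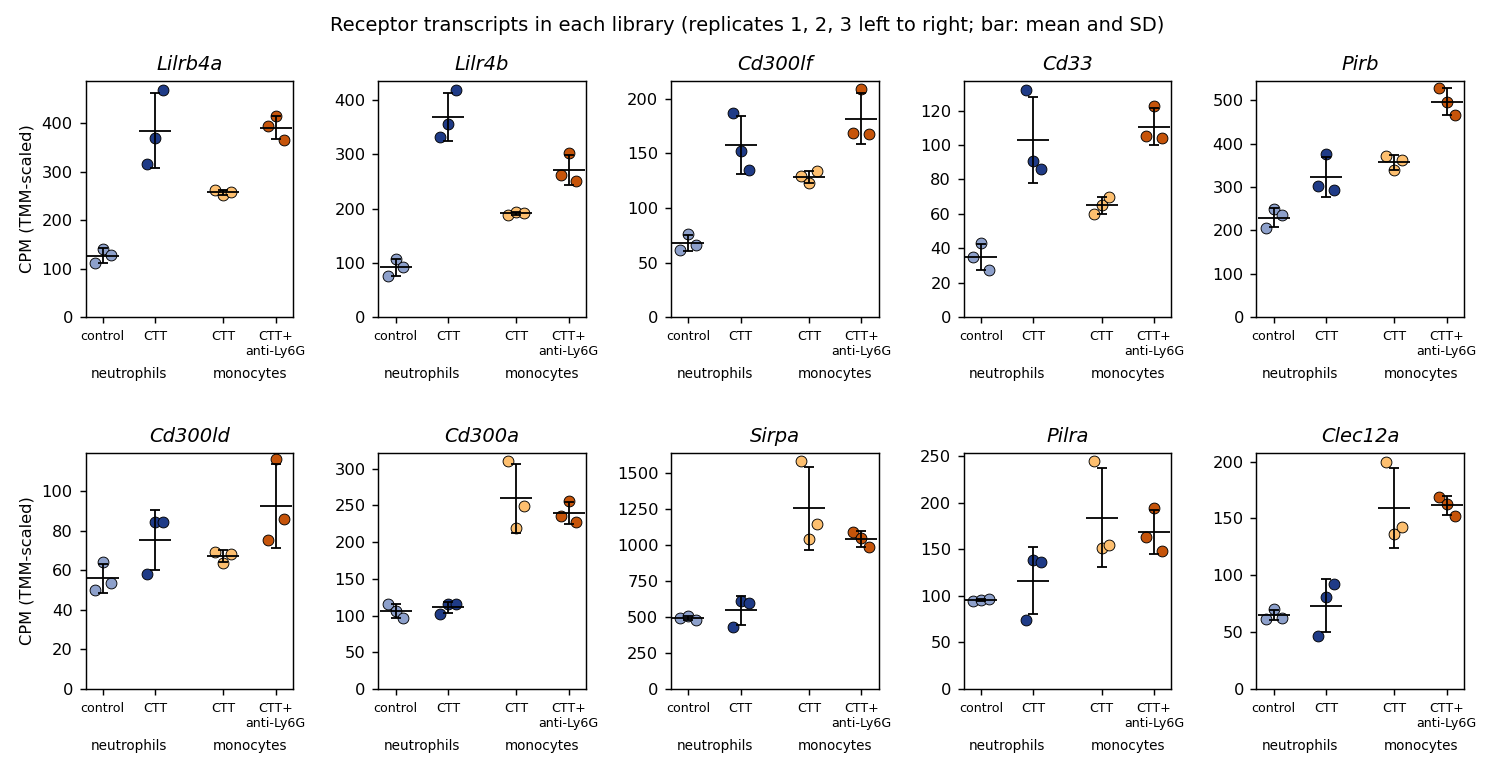
TMM-scaled CPM of each receptor gene (vertical axis, from 0) in the 12 libraries, in 4 groups of 3, with horizontal bars at the mean and whiskers of 1 SD. The upper row, with Lilrb4a, Lilr4b, Cd300lf, Cd33 and Pirb, shows no overlap between the groups of either table, while most genes of the lower row overlap. The tables were scaled separately, so levels are compared only within a table.

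Lilr4b was at 76.2, 107 and 92.0 CPM in the control libraries and at 332, 355 and 418 CPM after CTT. Every CTT library was thus more than triple every control library. The log2 fold change was 2.00 ± 0.17 (SE; edgeR adjusted p = 0.0132), the 5th smallest p of all genes.

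Lilrb4a was at 111, 141 and 128 CPM in controls and at 316, 369 and 469 CPM after CTT, again with no overlap. Its log2 fold change was 1.61 ± 0.18 (edgeR adjusted p = 0.0234). With the counted reads of both neighbours summed into 1 gene, the log2 fold change was 1.79 ± 0.17 (edgeR adjusted p = 0.0173). The sum thus rose however the counted reads were divided. It cannot show the change of either gene alone, and reads left out of the counts do not enter it.

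The balance between the neighbours also differed between the groups. Control neutrophils held 0.689, 0.762 and 0.720 Lilr4b reads for each Lilrb4a read, and CTT neutrophils 1.049, 0.963 and 0.892. The means were 0.724 ± 0.037 and 0.968 ± 0.078 (SD, n = 3 each), a difference of 0.42 on the log2 scale, with no overlap. A 2-sided exact permutation test gave p = 0.10, the smallest that 3 against 3 libraries allow. In monocytes the ratio was 0.718, 0.767 and 0.743 after CTT and 0.665, 0.730 and 0.684 with anti-Ly6G, and the groups overlapped. That log2 difference was −0.10 (exact permutation p = 0.20).

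**Figure D2:**
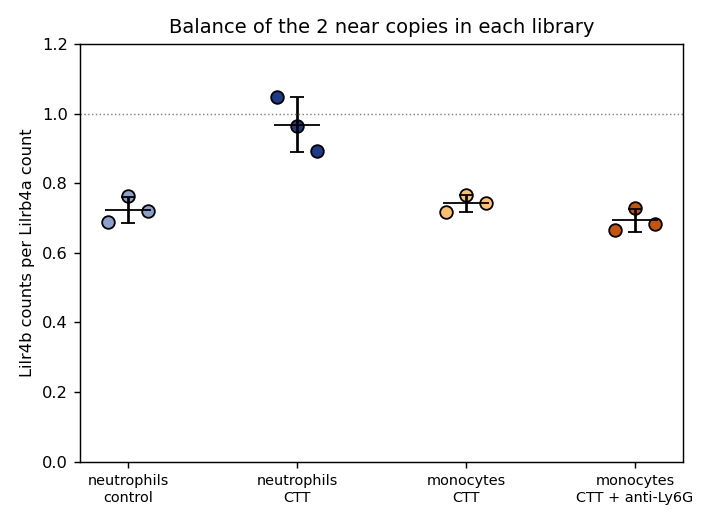
Reads of Lilr4b for each read of Lilrb4a (vertical axis, raw counts) in each library of the 4 groups, with the mean and SD as bars and a dotted line at equal counts. The 3 CTT neutrophil libraries, at 0.892 to 1.049, lie above all other libraries, which range from 0.665 to 0.767.

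Cd33, a sialic acid-binding lectin of the Siglec family, was the receptor gene with the lowest level per length in control neutrophils. It was at 34.9, 42.8 and 27.4 CPM in controls and at 132, 91.0 and 86 CPM after CTT. The groups did not overlap, and CTT replicate 1 was the highest (log2 fold change 1.55 ± 0.23, edgeR adjusted p = 0.0467).

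Cd300lf, an ITIM-bearing lipid receptor of the CD300 family that restrains myeloid activation and takes part in uptake of dying cells, was at 61.2, 76.2 and 66.0 CPM in controls. After CTT it was at 187, 152 and 135 CPM, with replicate 1 again highest and no overlap. Its log2 fold change was 1.22 ± 0.16 (edgeR adjusted p = 0.0325).

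Pirb, the inhibitory receptor for MHC class I that faces the activating Pira receptors, was at 205, 248 and 235 CPM in controls and 302, 377 and 292 CPM after CTT. All CTT libraries were above all controls, but the log2 fold change of 0.50 ± 0.15 did not pass (edgeR adjusted p = 0.253). In all, 5 of 10 receptor genes were higher without overlap, against 13.6% of all tested genes, and 5 overlapped.

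The remaining 5 genes are those with overlap. Sirpa, the receptor for CD47, was at 496, 506 and 476 CPM in controls and at 429, 608 and 599 CPM after CTT. Pilra, the inhibitory partner of the Pilrb receptors, was at 94.0, 95.4 and 97.0 CPM and then at 74.5, 138 and 136 CPM. Clec12a, an inhibitory lectin that senses uric acid crystals, was at 61.9, 69.9 and 62.3 CPM and then at 46.9, 80.8 and 92.1 CPM. In all of these CTT replicate 1 lay below every control and CTT replicates 2 and 3 above every control.

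Cd300ld, a CD300 member with a short tail that signals through Fcer1g, was at 50.2, 64.2 and 53.5 CPM in controls and at 58.0, 84.3 and 84.2 CPM after CTT, again with replicate 1 lowest. Cd300a, an ITIM-bearing receptor for phosphatidylserine, was at 96.6 to 116 CPM in controls and 102 to 116 CPM after CTT. Log2 fold changes of these 5 genes ran from 0.07 (Cd300a) to 0.43 (Cd300ld), with edgeR adjusted p from 0.359 to 0.801.

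CTT replicate 1 was thus the lowest CTT library for Sirpa, Pilra, Clec12a, Cd300ld and Cd300a, and the highest for Cd33 and Cd300lf. It was also the lowest CTT library for Lilrb4a (316 CPM) and Lilr4b (332 CPM), so genes that rose did not all share its pattern. Over the 6 neutrophil libraries the correlations of log2 CPM differed between pairs of receptors. Pearson's r was 0.99 for Lilrb4a with Lilr4b, 0.98 for Cd300lf with Cd33, 0.98 for Sirpa with Pilra and 0.96 for Clec12a with Sirpa. It was 0.16 for Sirpa with Cd33 and 0.01 for Cd300lf with Clec12a. The highest r of Cd300a with another receptor was 0.73 (Sirpa), and its r with Cd300ld was 0.53. These describe 6 libraries in 2 groups that share the scaling of each library, and carry no test.

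**Figure D3:**
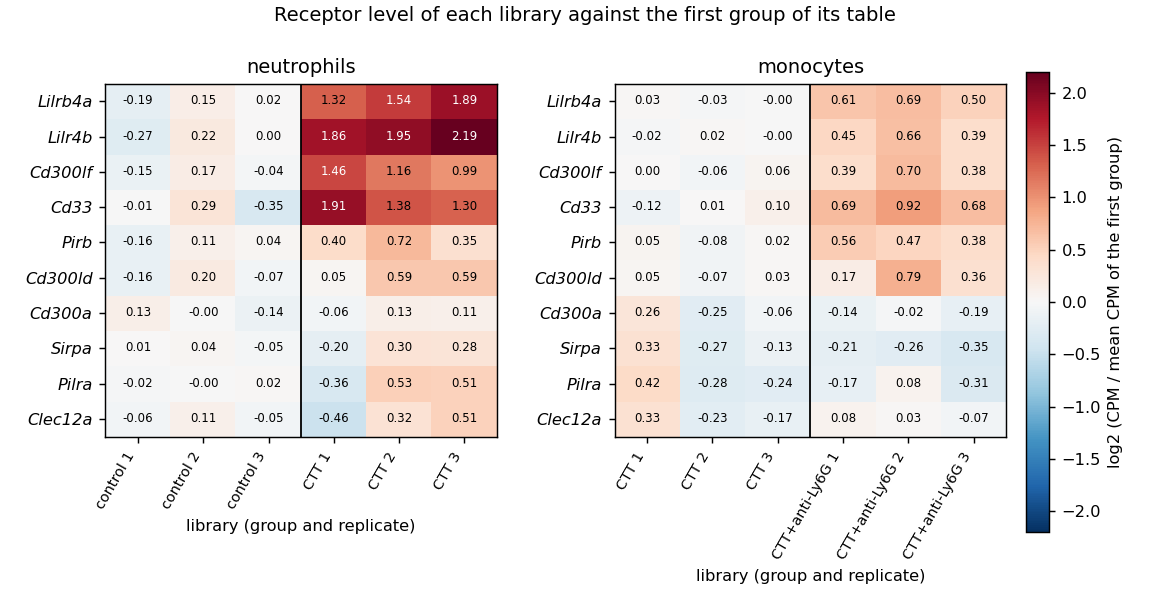
Log2 of each library's CPM over the mean of the first group of its table (controls for neutrophils, CTT without anti-Ly6G for monocytes), for the receptor genes in rows and the libraries in columns. CTT neutrophil replicate 1 is blue for Sirpa, Pilra and Clec12a and dark red for Cd33, and CTT monocyte replicate 1 is reddest for Pilra, Sirpa, Clec12a and Cd300a.

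The neutrophil calls rest on 3 libraries a group. Lilr4b and Lilrb4a passed under every scaling tried, while Cd33 did not pass with DESeq2 size factors, and neither Cd33 nor Cd300lf passed with upper quartile or library total scaling. Without control replicate 1, the library that stood apart, the same 4 receptor genes rose, with log2 fold changes of 1.52 (Lilrb4a), 1.89 (Lilr4b), 1.16 (Cd300lf) and 1.56 (Cd33). Of all 13295 genes tested without it, 257 rose and 31 fell. Without control replicate 2 or 3, or CTT replicate 1, 2 or 3, no receptor gene and no other gene passed, while the log2 fold changes stayed at 1.44 to 1.73 for Lilrb4a, 1.91 to 2.13 for Lilr4b, 1.09 to 1.33 for Cd300lf and 1.34 to 1.72 for Cd33.

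Neutrophil markers moved with these genes: 4 of the 16 rose and 0 fell, and their sum was 1.99-fold higher after CTT with no overlap. Per 1000 CPM of that sum, a ratio chosen after the values were seen, Lilr4b was at 17.7, 17.0 and 19.7 CPM in controls and 39.9, 41.3 and 31.2 CPM after CTT. Lilrb4a was at 22.3 to 27.4 CPM and then at 34.9 to 42.9 CPM, so both neighbours were higher without overlap on this scale. Cd33 was at 5.88 to 8.10 CPM and then at 6.41 to 15.9 CPM, and Cd300lf at 12.1 to 14.2 and then at 10 to 22.5 CPM, so that both overlapped. Sirpa, Clec12a, Cd300a and Cd300ld were lower than every control on this scale, and Pirb and Pilra overlapped. Directions on this scale follow from the sum, since genes that rose less than the sum come out lower on average and genes that rose more come out higher. Sums of other myeloid markers were also higher without overlap: 8 nonclassical monocyte markers at 1734 to 2576 CPM in controls and 2944 to 4627 CPM after CTT, and 10 dendritic cell markers at 695 to 940 CPM and then at 1000 to 1422 CPM, with no marker of either list past the test. Inflammatory monocyte markers were at 2355 to 2931 and then at 2753 to 3954 CPM, and red pulp macrophage markers at 3239 to 3502 and then at 3177 to 4045 CPM, both with overlap. The part of cell makeup in the receptor changes was not tested.

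In monocytes 5 days after CTT, anti-Ly6G was accompanied by higher transcripts of 5 of the 10 receptor genes: Lilrb4a, Lilr4b, Cd300lf, Cd33 and Pirb. Folds were 1.39 to 1.70. No receptor gene fell. In the same edgeR test over 13294 genes 1354 rose (10.2%) and 681 fell (5.12%), so that 66.5% of the calls were higher, or 50.9% with upper quartile scaling. Without adjustment 6 of the 10 passed as higher and 0 as lower, against 17.5% and 13.4% of all genes, and DESeq2 and limma-voom called 0 lower. The median log2 fold change was 0.47 over the receptors and −0.004 over all genes.

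Cd33 had the largest change. It was at 59.9, 65.4 and 69.9 CPM after CTT alone and at 105, 123 and 104 CPM with anti-Ly6G (log2 fold change 0.77 ± 0.09, edgeR adjusted p = 0.000857). Lilrb4a was at 263, 252 and 257 CPM and then at 394, 414 and 365 CPM (0.60 ± 0.06, edgeR adjusted p = 0.000636). Lilr4b was at 189, 194 and 191 CPM and then at 262, 303 and 250 CPM (0.51 ± 0.08, edgeR adjusted p = 0.00332). The groups of each of these genes were well apart, and the CTT libraries lay close together.

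Cd300lf was at 129, 123 and 134 CPM after CTT alone and at 169, 209 and 168 CPM with anti-Ly6G (log2 fold change 0.50 ± 0.09, edgeR adjusted p = 0.00808). Pirb was at 371, 338 and 363 CPM and then at 528, 495 and 466 CPM (0.47 ± 0.07, edgeR adjusted p = 0.00263). Neither had overlapping groups. Summing Pirb with the Pira genes and Lilra6 gave 0.36 ± 0.07 (edgeR adjusted p = 0.00738), and summing it with every tabled gene that shares 100 bases gave 0.37 ± 0.06 (edgeR adjusted p = 0.00627). The counts of Pirb pooled with those of its relatives thus rose too. Since Pirb is part of both sums, they cannot show how shared reads bear on its own change.

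Cd300ld was at 69.2, 63.7 and 68.3 CPM after CTT alone and at 75.3, 116 and 86.1 CPM with anti-Ly6G. It was higher in each anti-Ly6G library but did not pass (log2 fold change 0.46 ± 0.14, edgeR adjusted p = 0.0547). It passed with DESeq2 (adjusted p = 0.0176), by which 11.8% of all genes were higher and 9.06% lower, and in edgeR with no filter (adjusted p = 0.0378). With it, 6 of the 10 genes were higher without overlap, against 20.6% of all tested genes, and 4 overlapped.

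The 4 that overlapped were Cd300a, Sirpa, Pilra and Clec12a, and in all of them CTT replicate 1 was the highest library. Sirpa was at 1584, 1039 and 1146 CPM after CTT alone and at 1089, 1052 and 985 CPM with anti-Ly6G (log2 fold change −0.27 ± 0.14, edgeR adjusted p = 0.224). Cd300a was at 311, 219 and 249 CPM and then at 235, 256 and 228 CPM. Pilra was at 245, 151 and 155 CPM and then at 163, 194 and 148 CPM. Clec12a was at 200, 136 and 142 CPM and then at 169, 163 and 152 CPM. Log2 fold changes of Cd300a, Pilra and Clec12a were −0.12, −0.12 and 0.02 (−0.03 for Clec12a with upper quartile scaling), with edgeR adjusted p of 0.55, 0.69 and 0.942.

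CTT replicate 1 also held the highest sum of red pulp macrophage markers, 16779 CPM against 10110 and 11598 CPM in CTT replicates 2 and 3. Without that library 7 receptor genes rose, Cd300ld (edgeR adjusted p = 0.044) and Clec12a (log2 fold change 0.22 ± 0.06, edgeR adjusted p = 0.0389) being added to the 5. Of all 13525 genes tested without it, 1687 rose and 1168 fell. The log2 fold change of Sirpa was then −0.07, that of Cd300a 0.03 and that of Pilra 0.14. Without anti-Ly6G replicate 1, 6 receptor genes rose, with Cd300ld added, while of all 13523 genes 761 rose and 177 fell.

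**Figure D4:**
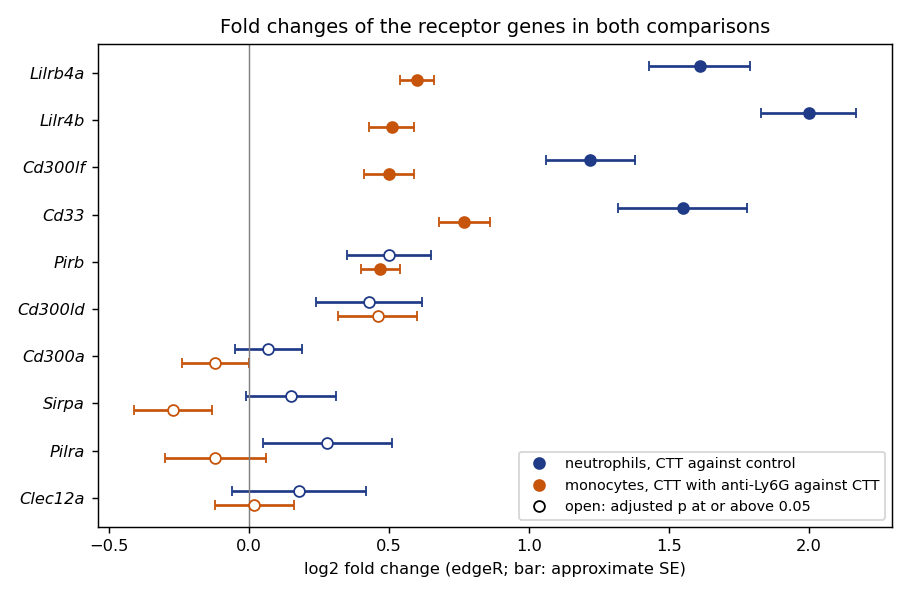
Log2 fold change of each receptor gene (horizontal axis) with its approximate SE as a bar, for neutrophils after CTT against control in blue and monocytes with anti-Ly6G against CTT alone in orange. Filled points passed the adjusted threshold of 0.05: 4 genes in neutrophils and 5 in monocytes, all to the right of 0.

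Other cell type markers moved in the monocyte comparison as well. Of the 16 neutrophil markers 14 rose and 0 fell, and their sum went from 5050 to 7076 CPM after CTT alone to 13950 to 18943 CPM with anti-Ly6G, 2.90-fold higher. Ly6g itself was at 11.7 to 16.1 CPM and then at 48.5 to 62.7 CPM (log2 fold change 2.04, edgeR adjusted p = 0.000106). Of 10 inflammatory monocyte markers 8 rose and 1 fell, and of 12 red pulp macrophage markers 9 fell and 0 rose. The folds of the 5 receptor genes that rose, up to 1.70, were below that of the summed neutrophil markers. The receptor values therefore depended on the scale, and the 2 scales below were chosen after the values were seen. Their directions follow from the sums. The neutrophil marker sum rose more than any receptor gene, and the red pulp macrophage marker sum, at 0.66-fold, fell more than any. Per 1000 CPM of neutrophil markers, all 10 were lower with anti-Ly6G without overlap, from 0.290-fold (Sirpa) to 0.575-fold (Cd33). Per 1000 CPM of red pulp macrophage markers, all 10 were higher without overlap, from 1.25-fold (Sirpa) to 2.44-fold (Cd33). The part of these cells in the receptor changes was not tested.

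Lilrb4a, Lilr4b, Cd300lf and Cd33 rose in both comparisons, and Cd300a, Cd300ld, Sirpa, Pilra and Clec12a in neither. Of all 74 genes that rose in neutrophils, 52 also rose in monocytes, or 70.3% of the neutrophil genes and 3.84% of the monocyte genes that rose, so rising in both was common among the neutrophil calls. Whether a fold change differed between the comparisons was not tested, since cell type, time and treatment all differ between the tables.

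Per length, in the authors' FPKM (reads scaled by gene length and depth), the order of levels changed with CTT. In control neutrophils Pirb (85.9 ± 9.46 FPKM, SD, n = 3), Lilrb4a (84.3 ± 11.2) and Sirpa (79.4 ± 2.92) were highest and overlapped. Lilr4b (63.3 FPKM) and Cd300a (45.8 FPKM) came next, each apart from the genes ranked just above and below it. The range of Lilr4b (51.6 to 74.8 FPKM) still overlapped that of Lilrb4a (72.6 to 94.9 FPKM). Cd33 was last at 12.1 ± 2.75 FPKM. After CTT, Lilrb4a (245 ± 42.4 FPKM) and Lilr4b (243 ± 22.6 FPKM) overlapped each other at the top, and both were above Pirb (117 ± 17.8 FPKM) in every library. Sirpa (84.2 FPKM) and Cd300lf (82.2 FPKM) followed with overlap. The last 5, Cd300a, Pilra, Cd33, Clec12a and Cd300ld, lay between 46.0 and 30.3 FPKM, each overlapping the next.

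In monocytes after CTT alone, Sirpa was highest at 200 ± 43.4 FPKM and overlapped Lilrb4a at 170 ± 1.73 FPKM. Pirb (132 FPKM), Lilr4b (130 FPKM) and Cd300a (111 FPKM) came next with overlap between neighbours. Clec12a (72.3 FPKM), Pilra (71.4 FPKM) and Cd300lf (68.8 FPKM) overlapped too, and Cd300ld (27.8 FPKM) and Cd33 (22.2 FPKM) were lowest. With anti-Ly6G, Lilrb4a led at 253 ± 15 FPKM, above Lilr4b (181 FPKM) and Pirb (180 FPKM) in every library, and Sirpa was the fourth at 163 FPKM. Cd33 at 37.0 FPKM overlapped Cd300ld at 37.5 FPKM at the low end.

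Genes with the most similar pattern over the 6 libraries of a table were looked up among those averaging 10 CPM or more (9061 in neutrophils, 9349 in monocytes), by Pearson's r of log2 CPM. In neutrophils the closest to Lilr4b was Tarm1, another receptor of the leukocyte Ig-like family (r = 0.998), the closest to Lilrb4a was Xdh, the gene of xanthine oxidoreductase (r = 0.997), and the closest to Sirpa was Pilrb2, an activating partner of Pilra (r = 0.986). In monocytes the closest to Lilr4b was C5ar1, the receptor for a complement fragment (r = 0.999), and the closest to Clec12a was Ifnar2, a chain of the type I interferon receptor (r = 0.996). With 6 libraries and so many genes, high values of r are found for any gene, and these carry no test.

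The other genes of the pathway were followed through 5 lists. In neutrophils none of their 70 tested genes passed edgeR, with 11 higher and 2 lower at an unadjusted p under 0.05, against 8.28% and 5.74% of all genes. DESeq2 called 4 higher (Fgr, Siglece, Cd244a and Klra2) and 0 lower, and limma-voom called 0. Over all genes DESeq2 called 3.49% higher and 0.819% lower. Siglece, an ITIM-bearing Siglec of neutrophils and macrophages, was at 110, 101 and 89.8 CPM in controls and at 148, 197 and 179 CPM after CTT (log2 fold change 0.80 ± 0.15, edgeR adjusted p = 0.0848). Its CTT libraries lay above all controls.

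Of the signalling genes in neutrophils, Fgr, a Src family kinase, was at 218 to 256 CPM in controls and 304 to 396 CPM after CTT (log2 fold change 0.61, edgeR adjusted p = 0.155). Ptpn6, the main phosphatase of ITIM signals, had a log2 fold change of 0.06 (edgeR adjusted p = 0.902), which was −0.004 when scaled by library totals. Ptpn11 had −0.21 and Inpp5d 0.24 (edgeR adjusted p = 0.421 and 0.478). Of the adaptors, Fcer1g had 0.51, Tyrobp 0.30 and Hcst 0.33, with edgeR adjusted p from 0.324 to 0.545. Cd47, the ligand of Sirpa, had −0.12 (edgeR adjusted p = 0.758), and 0.09 without control replicate 1.

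In monocytes, of 23 other inhibitory receptors tested, 7 rose and 1 fell, where 10.2% of all genes rose and 5.12% fell, with a median log2 fold change of 0.12. Ceacam1, an ITIM-bearing adhesion receptor, was at 79.9, 71.2 and 77.7 CPM after CTT alone and at 145, 142 and 130 CPM with anti-Ly6G (0.87 ± 0.07, edgeR adjusted p = 0.000192). Milr1, an inhibitory receptor known from mast cells, rose by 0.73, and Klra17, a receptor of the Ly49 family, by 0.98 on the log2 scale (edgeR adjusted p = 0.00207 and 0.00266). Pecam1, an ITIM-bearing adhesion molecule, was at 192 to 199 CPM and then at 122 to 145 CPM, and fell by 0.57 on the log2 scale (edgeR adjusted p = 0.00157). The list went both ways, and DESeq2 called 7 higher and 4 lower.

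Among 17 tested genes listed as activating counterparts 4 rose and 1 fell, against 10.2% and 5.12% of all genes, with a median of −0.01. Whether each listed gene, such as Cd300lg, is an activating receptor was not checked. Cd300lb, an activating CD300 receptor that pairs with Tyrobp, was at 61.4, 58.3 and 56.9 CPM after CTT alone and at 88.4, 110 and 82.6 CPM with anti-Ly6G (log2 fold change 0.67 ± 0.10, edgeR adjusted p = 0.00355). Sirpb1c, an activating relative of Sirpa, rose by 0.78 ± 0.15 (edgeR adjusted p = 0.00963). Lilra6 rose by 0.37 and Cd300lg by 0.83 on the log2 scale (edgeR adjusted p = 0.0408 and 0.0494). Cd300e, a CD300 receptor of nonclassical monocytes, was at 117, 83.4 and 83.0 CPM and then at 49.6, 66.7 and 63.4 CPM (−0.66 ± 0.15, edgeR adjusted p = 0.0228). Lilra6 lost its call without CTT replicate 2 or 3 or anti-Ly6G replicate 2 or 3 (edgeR adjusted p up to 0.144), and Cd300lg without any library but CTT replicate 1 (up to 0.166). Lilra6 also did not pass with upper quartile or library total scaling, nor Cd300lg with DESeq2 size factors, upper quartile scaling or a minimum of 1 CPM, and neither passed on FPKM. Sirpb1c lost it without CTT replicate 3 (edgeR adjusted p = 0.0511), and Cd300e without anti-Ly6G replicate 1 or 3 (up to 0.0808). Within the CD300 genes, then, Cd300lf, Cd300lb and Cd300lg rose, Cd300e fell, and Cd300a and Cd300ld did not pass.

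Of 17 signalling genes 2 rose (Fgr and Pag1) and 1 fell (Fyn), with log2 fold changes of 0.35, 0.31 and −0.24 and edgeR adjusted p of 0.0167, 0.0283 and 0.0337. These counts are near the shares of all genes that rose (10.2%) and fell (5.12%). Pag1 also did not pass with upper quartile scaling or on FPKM. Fgr lost its call without CTT replicate 2 or 3 or anti-Ly6G replicate 1 or 2 (edgeR adjusted p up to 0.0788), Pag1 without CTT replicate 2 or 3 or anti-Ly6G replicate 2 or 3 (up to 0.0867), and Fyn without CTT replicate 3 or any anti-Ly6G replicate (up to 0.125). The log2 fold change of Ptpn6 was 0.01 (edgeR adjusted p = 0.923), at −0.04 with upper quartile scaling, that of Ptpn11 0.10 and that of Inpp5d −0.07. None of the 3 ITAM adaptors and none of the 9 ligands passed edgeR, with 1 adaptor higher and 2 ligands lower at an unadjusted p under 0.05. DESeq2 called 0 adaptors and 2 ligands lower, and limma-voom called 0 in both lists. Without CTT replicate 1, Tyrobp (log2 fold change 0.42, edgeR adjusted p = 0.00223) and Fcer1g (0.36, edgeR adjusted p = 0.00564) passed. The ligand gene Fn1 then passed as higher (0.65, edgeR adjusted p = 0.000384). The ligand genes Cd200 (−0.52, edgeR adjusted p = 0.0135), Apoe (−0.23, edgeR adjusted p = 0.0447) and H2-K1 (−0.16, edgeR adjusted p = 0.0457) passed as lower. Apoe, the gene of a lipoprotein component, also passed as lower in edgeR with upper quartile scaling, library totals, no filter, and without CTT replicate 2 (edgeR adjusted p from 0.0302 to 0.0398). Cd99l2 passed as lower without anti-Ly6G replicate 1 (edgeR adjusted p = 0.0491). With all libraries Tyrobp had 0.29 (edgeR adjusted p = 0.1), Fcer1g 0.13, Apoe −0.38 (edgeR adjusted p = 0.0604) and Cd47 0.11 (edgeR adjusted p = 0.323).

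**Figure D5:**
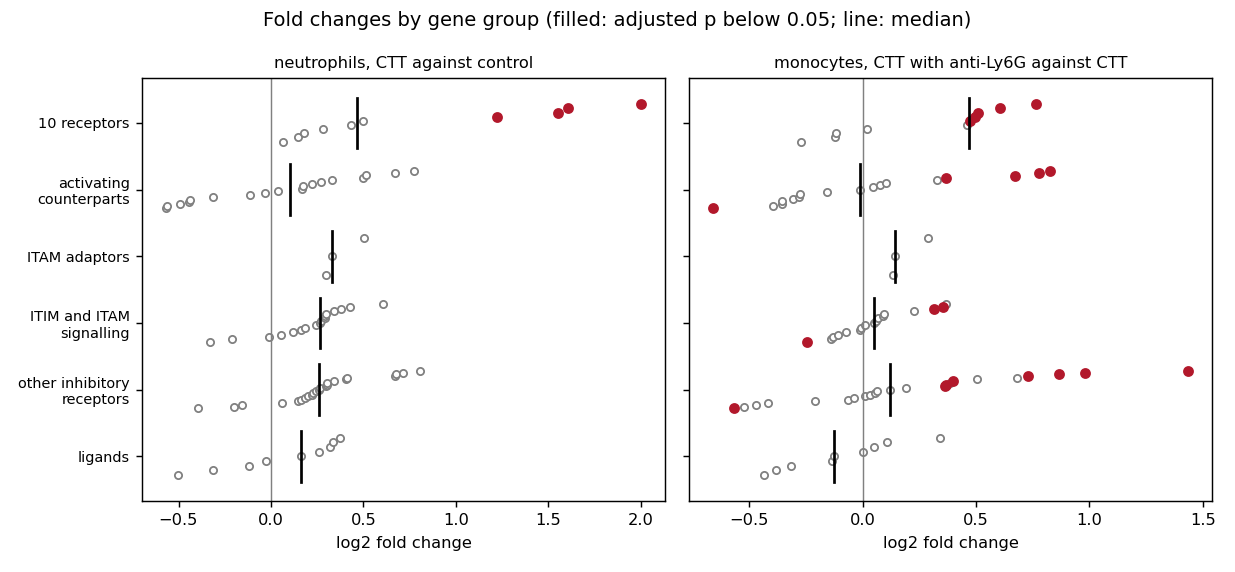
Log2 fold changes (horizontal axis) of the 10 receptors and of the tested genes of the 5 other lists in both comparisons, 1 point a gene, filled where the edgeR adjusted p was below 0.05, with the median of each list as a vertical line. The medians of the receptors, 0.46 and 0.47, lie to the right of those of the other lists, which range from 0.10 to 0.33 in neutrophils and from −0.12 to 0.14 in monocytes. Receptors and lists were chosen with earlier results of these data known, so the medians are a description only.

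Promoter windows of the receptor genes were searched for short motifs. The RefSeq table for GRCm38.p6 held a window for 8 of the 10 genes, without Lilrb4a and Sirpa, and the 250 bases before the table's start of each gene, 1 of its transcript starts, were searched on both strands. By the RefSeq gene coordinates, 4 of these windows (Cd33, Cd300lf, Cd300a and Clec12a) lie inside the gene, behind its outermost start, and 4 (Pirb, Lilr4b, Pilra and Cd300ld) before it. GAGGAA, the core of sites for the myeloid factor encoded by Spi1, was found in 7 of 8 windows and in 23.3% of 32851 windows of all genes. GGAAGT, an ETS family core that can overlap it, was in 4 of 8 and in 19.7% of all. TGANTCA (AP-1) was in 1 of 8 and in 6.75% of all, and the outer bases of an NF-kB site (GGG and CC with 5 free bases between) in 4 of 8 and in 45.8% of all. Among the rising genes, the windows of Pirb and Lilr4b are shown because they lie wholly before their genes and are the extremes, with 3 matches of GAGGAA on either strand (in capitals) and none. The Pirb window is chr7:3720383-3720632 on the minus strand and the Lilr4b window chr10:51480362-51480611 on the plus strand, each 5′ to 3′ in the direction of the gene.

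Pirb: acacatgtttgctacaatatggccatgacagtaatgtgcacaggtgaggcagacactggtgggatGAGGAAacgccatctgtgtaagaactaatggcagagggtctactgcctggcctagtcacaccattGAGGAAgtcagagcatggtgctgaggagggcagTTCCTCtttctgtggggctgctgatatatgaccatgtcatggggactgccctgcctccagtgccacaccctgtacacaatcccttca

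Lilr4b: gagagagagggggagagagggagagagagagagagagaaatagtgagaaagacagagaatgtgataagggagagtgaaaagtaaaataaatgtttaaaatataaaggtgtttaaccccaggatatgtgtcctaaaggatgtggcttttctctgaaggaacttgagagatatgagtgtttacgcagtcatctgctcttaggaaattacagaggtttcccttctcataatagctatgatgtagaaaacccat

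The Lilr4b window is thus the only searched window without GAGGAA, and Lilrb4a and Sirpa have no window. Whether these letters bear on the fold changes was not tested. A match is a description of the letters in these windows only.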

How the data were processed

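Per the labels' protocols, TRIzol RNA of 12 spleen cell samples went into libraries of the VAHTS Universal V6 kit. The submitters' processing notes name HISAT2, HTSeq and mm10, while their versions, the annotation and the strand setting are unknown here, so that reads of overlapping genes may be mixed. The authors deposited whole-number counts per gene and FPKM, in 1 table per cell type, and no value column was left out (0 unmapped).

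Counts were tested per table, 3 against 3, with edgeR 4.0.16 in R 4.3.3: filterByExpr, TMM scaling, quasi-likelihood F test, 2-sided, Benjamini-Hochberg adjustment over all tested genes, threshold 0.05. SE is the absolute log2 fold change over the square root of F. CPM are TMM-scaled. The procedure was also run on simulated counts with the same spread for every gene and no outlying library, unlike these data. No result here rests on that run. Sequences were compared with Biopython 1.88. Named are all 10 receptors, up to 5 genes of each pathway list by smallest p, all ITAM adaptors, and Cd47, Ptpn6, Ptpn11 and Inpp5d. The receptors, lists and tests were chosen with earlier results of these data known. Alternatives were other scalings, filters, DESeq2 1.42.0, limma 3.58.1 (voom on counts, trend on log2 of FPKM plus 1 or 0.1), the replicate number as a block, each library left out, and summed near copies.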

Additional observations from a re-analysis of the deposited data

How the results depend on the processing

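The number of rising receptor genes in neutrophils, 4, was 2 with upper quartile scaling, with library totals and with limma-trend on log2(FPKM + 1) or log2(FPKM + 0.1), always Lilr4b and Lilrb4a, and 3 with DESeq2 size factors. With 1 library left out it ranged from 0 to 4, and in monocytes the count of 5 ranged from 5 to 7. The count of all rising genes then ranged from 0 to 257 in neutrophils and from 706 to 1687 in monocytes. No receptor gene fell under any alternative in either comparison. Same-numbered libraries did not all deviate together (r = 0.25, 0.0001 and 0.23 in neutrophils, 0.17, −0.06 and 0.22 in monocytes). Deviations from a mean of so few libraries are tied to each other, so these values cannot show whether the numbers pair the libraries. With the replicate block 1 receptor gene, Lilr4b, rose in neutrophils, where 4 genes of all rose and 1 fell, and 5 rose in monocytes. Directions turned only where the fold was near 0, with no reversed value past the threshold. For Clec12a in monocytes the log2 fold change was −0.03 with upper quartile scaling, −0.01 with library totals, and −0.09, −0.07 and −0.02 without CTT replicate 2, CTT replicate 3 and anti-Ly6G replicate 1; in neutrophils it was −0.02 without CTT replicate 3. Leaving out 1 library gave Clec12a up to 0.42 in neutrophils and 0.22 in monocytes. Without CTT replicate 1 in monocytes, Cd300a was at 0.03 (range −0.23 to 0.03 over left-out libraries) and Pilra at 0.14 (−0.26 to 0.14). For Ptpn6 in monocytes it was −0.002 with DESeq2 size factors, −0.04 with upper quartile scaling, −0.02 with library totals, −0.002 with DESeq2, −0.02 with both FPKM settings, and −0.01, −0.002 and −0.005 without CTT replicate 1 and anti-Ly6G replicates 2 and 3 (up to 0.04); in neutrophils it was −0.004 with library totals and −0.12 without control replicate 1 (up to 0.19). Cd47 in neutrophils was at 0.09 without control replicate 1 (−0.24 to 0.09). The causes were not tested. DESeq2 called 456 rising and 107 falling genes in neutrophils, against 74 and 0 with edgeR, and 1204 falling genes in monocytes against 681. The replicate block called 1043 falling genes in monocytes.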
